A study of Drosophila melanogaster with 2 samples.

Results

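The mitochondrial ribosomal protein genes of Drosophila melanogaster are described here by the binding sites in and around them of the transcription factor Odd skipped (Odd), from a chromatin immunoprecipitation and sequencing (ChIP-seq) experiment. Members were taken by their name: every protein-coding gene of the Ensembl annotation whose symbol is mRpL or mRpS followed by a number. This rule gave 73 of 13968 protein-coding genes, 47 of the large subunit (mRpL) and 26 of the small subunit (mRpS). The samples were 2 biological replicates of 1 group, whole embryos of both sexes aged 0 to 16 h from a transgenic fly line of the strain odd-GFP that stably expressed Odd with GFP at its C terminus. Chromatin was sonicated to 200 to 800 bp and precipitated with an antibody against GFP. There was no second genotype, treatment or time point, and the control library named for the experiment was not analysed here. The line was 1 transgenic line, labelled as an insertion targeting D. melanogaster odd. The labels do not otherwise give the state of the endogenous odd gene. The embryos were pooled over many stages and cell types, so that occupancy in more cells and stronger occupancy in fewer cells cannot be told apart.

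The mitochondrial ribosome, or mitoribosome, is the machine inside mitochondria that translates the few messages of the mitochondrial genome, nearly all of which encode subunits of the respiratory chain and the ATP synthase. All of its proteins are encoded in the nucleus, made by cytosolic ribosomes and imported. The large subunit holds the centre where peptide bonds form, and the small subunit decodes the message. Odd, named for the loss of alternate segments in its mutants, belongs to the pair-rule genes and acts through zinc fingers, mainly as a repressor of transcription.

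Sites were read from the deposited peak lists. The final list, filtered by the irreproducible discovery rate (IDR), which scores agreement between replicates, held 4291 peaks, and each relaxed list, background included, held 30000. Each peak has a summit, its highest point, and a signal value that the authors' peak caller assigned. The signal is the authors' score, is used only to rank peaks within a list, and ranged from 144 to 2892 with a median of 219 in the IDR list. Rank 1 is the strongest peak. Read depth is unknown, since the lists hold no reads.

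A member was read in 3 ways. Its territory was the span of the gene and 5 kb on each side. Its own promoter was the stretch within 500 bp of any of its annotated transcription start sites (TSSs). Its own TSS was nearest where, for a summit in the territory, no other protein-coding gene had a closer TSS. Of the 16 own-promoter sites, 12 lay between the TSSs of a member and of a neighbour on the other strand. Printed below are some of these, beside 1 of a member with no such neighbour. They were not chosen by rank alone: mRpL20 (rank 941) and mRpS26 (rank 1511) are left out and mRpL21 (rank 2129) is shown. The sequences are stretches without annotated exons around the IDR summit, from the NCBI Release 6 genome (dm6), 5′ to 3′ on the member's strand. Capitals mark matches to any of the 9 short words of known factors that were searched on both strands.
mRpS23, chr2L:13835326-13835563, strand -: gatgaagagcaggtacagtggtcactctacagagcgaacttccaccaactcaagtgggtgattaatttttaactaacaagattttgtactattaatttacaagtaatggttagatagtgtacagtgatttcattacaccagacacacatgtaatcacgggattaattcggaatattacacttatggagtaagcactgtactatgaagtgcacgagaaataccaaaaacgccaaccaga
mRpS10, chr3R:15229413-15229663, strand +: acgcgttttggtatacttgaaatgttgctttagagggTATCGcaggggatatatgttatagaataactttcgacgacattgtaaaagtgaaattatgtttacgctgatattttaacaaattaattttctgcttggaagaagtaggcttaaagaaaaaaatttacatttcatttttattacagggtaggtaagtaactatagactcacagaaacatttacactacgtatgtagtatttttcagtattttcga
mRpL24, chr2L:4945388-4945578, strand -: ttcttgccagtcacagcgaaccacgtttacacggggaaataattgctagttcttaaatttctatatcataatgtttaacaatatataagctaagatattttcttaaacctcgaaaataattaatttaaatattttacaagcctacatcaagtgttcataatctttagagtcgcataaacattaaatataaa
mRpS2, chr2L:4850443-4850640, strand -: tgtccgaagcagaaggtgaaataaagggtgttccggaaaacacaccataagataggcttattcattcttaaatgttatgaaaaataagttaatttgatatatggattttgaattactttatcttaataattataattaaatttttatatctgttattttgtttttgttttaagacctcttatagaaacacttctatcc
mRpL21, chr3L:19255062-19255289, strand -: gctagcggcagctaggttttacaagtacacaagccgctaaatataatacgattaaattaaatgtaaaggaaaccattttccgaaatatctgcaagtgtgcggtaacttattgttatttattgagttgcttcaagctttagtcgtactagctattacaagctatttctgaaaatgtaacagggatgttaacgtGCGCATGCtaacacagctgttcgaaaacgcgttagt
mRpL19, chr3R:8673853-8674103, strand +: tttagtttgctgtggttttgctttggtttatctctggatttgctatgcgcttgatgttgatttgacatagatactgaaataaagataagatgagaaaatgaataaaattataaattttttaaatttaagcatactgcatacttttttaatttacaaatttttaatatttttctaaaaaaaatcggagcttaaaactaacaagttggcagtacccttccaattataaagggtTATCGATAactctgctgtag
In mRpS10 the capitals mark the core bound by the boundary factor BEAF-32 (CGATA, here on the other strand). In mRpL21 they mark the site of ewg, the fly relative of the mammalian respiratory regulator NRF-1 (GCGCATGC). In mRpL19 they mark the DNA replication-related element (DRE, TATCGATA), a common promoter element of growth genes in flies, which also holds the BEAF core on both strands. The stretches of mRpS23, mRpL24 and mRpS2 held none of the 9 words.

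An IDR summit lay in the territory of 37 of the 73 members (50.7%, exact 95% binomial interval 38.7 to 62.6%), against 39.7% of all protein-coding genes, members included. The intervals, by the Clopper-Pearson method, cover counting of genes only, and neighbouring genes are not independent. Members are short genes, with a median span of 909 bp (390 to 13391 bp) against 2164.5 bp for all protein-coding genes, so a gene of the same size is the closer comparison. Among members with a span of at most 2 kb the share was 35 of 70 (interval 37.8 to 62.2%), against 30.5% of all genes of that size, a background outside the interval. Other genes with a TSS in the territory numbered a median of 3 for members, as over all genes, 4 for the members called and 3 for those not called. An IDR summit lay at the own promoter of 16 members (21.9%, 13.1 to 33.1%), against 14.3% of all genes. The own TSS was the nearest in 7 members (9.59%, 3.94 to 18.8%), against 17.6% of all genes. With the nearest TSS also required to lie within 500 bp, the count was 7 members again and the share of all genes was 11.7%, also inside the interval. By their point values members were above the background in the first and second reading and below it in the third. In each of the 3 readings over genes of all sizes the background share lay inside the members' interval.

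The territories held 48 IDR summits, none shared by 2 members. Of the 37 members, 28 had exactly 1 summit and 9 had more, up to 4 in mRpL19. Of the 48 summits, 16 lay at a member's own promoter, 25 at the promoter of another gene in the territory and 7 at no promoter. Among the 16 at an own promoter, the member's TSS was the nearest in 7 and a neighbour's in 9. A summit lay inside the gene itself in 2 members, mRpL23 and mRpS9 (2.74%, against 11.9% of genes of all sizes). Members are short, and this share was not counted for genes of their size. A lower share in members therefore cannot be told apart from their length.

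**Figure D1:**
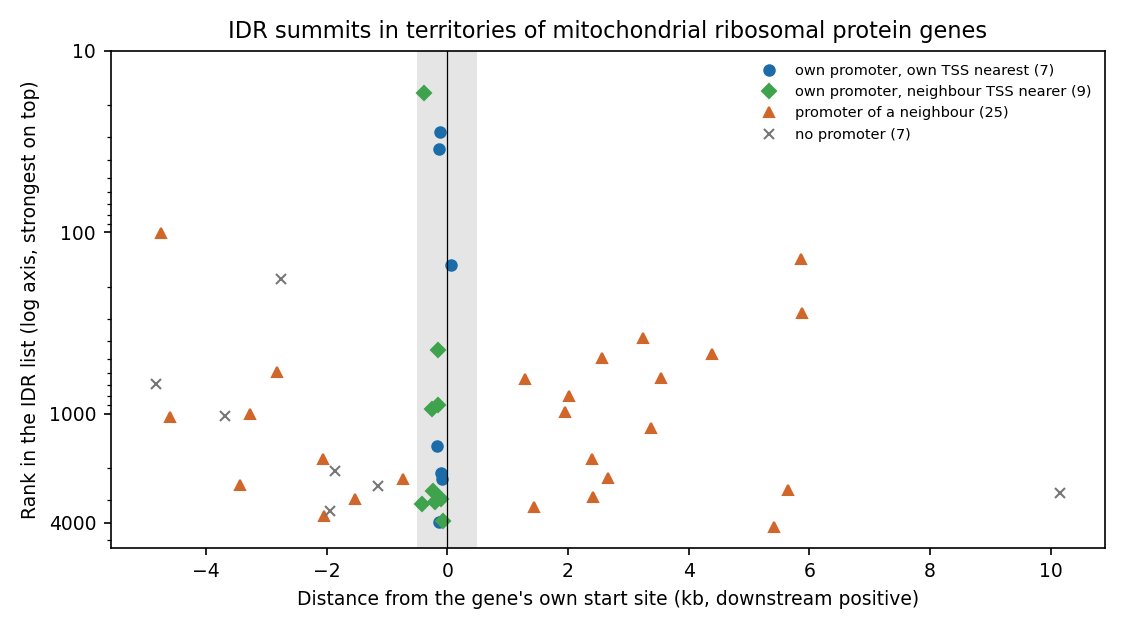
Rank in the IDR list (y, log axis, strongest on top) against distance from the member's own start site (x, kb, positive downstream) for the 48 IDR summits in member territories; the grey band is the own promoter, 500 bp to each side. Own-promoter summits sit just upstream of the start, 15 of 16 with negative distances, and the summits at promoters of neighbours lie from 729 to 5880 bp away, on both sides. The upstream share was not counted over all genes.

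The 3 strongest own-promoter sites of the group ranked among the 35 strongest of all 4291 IDR peaks. At mRpS23, a protein of the small subunit (FBgn0260407, 2L:13834250-13835072, minus strand), the peak ranked 17 with a pooled signal of 1595. Its signal was 818 in replicate 1 (rank 17) and 776 in replicate 2 (rank 16). At mRpS10, whose bacterial relative lies in the head of the small subunit (FBgn0038307, 3R:15229665-15230516, plus strand), the peak ranked 28 with a pooled signal of 1438. Its signal was 754 in replicate 1 (rank 25) and 686 in replicate 2 (rank 29). At mRpL41, a large-subunit protein without a bacterial relative (FBgn0034001, on 2R), the peak ranked 35 with a pooled signal of 1324. Its signal was 711 in replicate 1 (rank 35) and 626 in replicate 2 (rank 38). All 3 were in the top 40 of each replicate, and the signal was slightly higher in replicate 1 at each.

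Next came mRpL23, a protein of the rim of the exit tunnel in bacterial ribosomes, at rank 151 with a pooled signal of 840, 462 in replicate 1 and 370 in replicate 2. Its summit was the single one downstream of the TSS, at 63 bp, in the 5′ untranslated exon. At mRpL24 the peak ranked 444 (pooled signal 520), with 311 in replicate 1 (rank 335) and 205 in replicate 2 (rank 682). At mRpS2 it ranked 902 (362), with 196 in replicate 1 and 168 in replicate 2. At mRpL20 it ranked 941 (355), with 123 in replicate 1 (rank 1956) and 224 in replicate 2 (rank 567). The order of mRpL24, mRpS2 and mRpL20 thus differed between the replicates.

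The other 9 own-promoter peaks ranked from 1511 to 3975. They were mRpS26 (rank 1511, pooled signal 269), mRpL21 (2129, 220), mRpS6 (2286, 212), mRpS21 (2687, 194), mRpL53 (2952, 183), mRpL17 (3074, 178), mRpL32 (3171, 175), mRpL51 (3908, 153) and mRpL19 (3975, 151). The last 2 were close to the lowest signal of the IDR list, 144. Over the 16 members the median rank was 1820 and the median signal 244, against 1722 and 250 for the 2001 protein-coding genes with an IDR summit at their promoter. As a group, the sites were therefore neither stronger nor weaker than those of other promoters by these medians, and the 3 at the top were the upper end of a wide range.

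**Figure D2:**
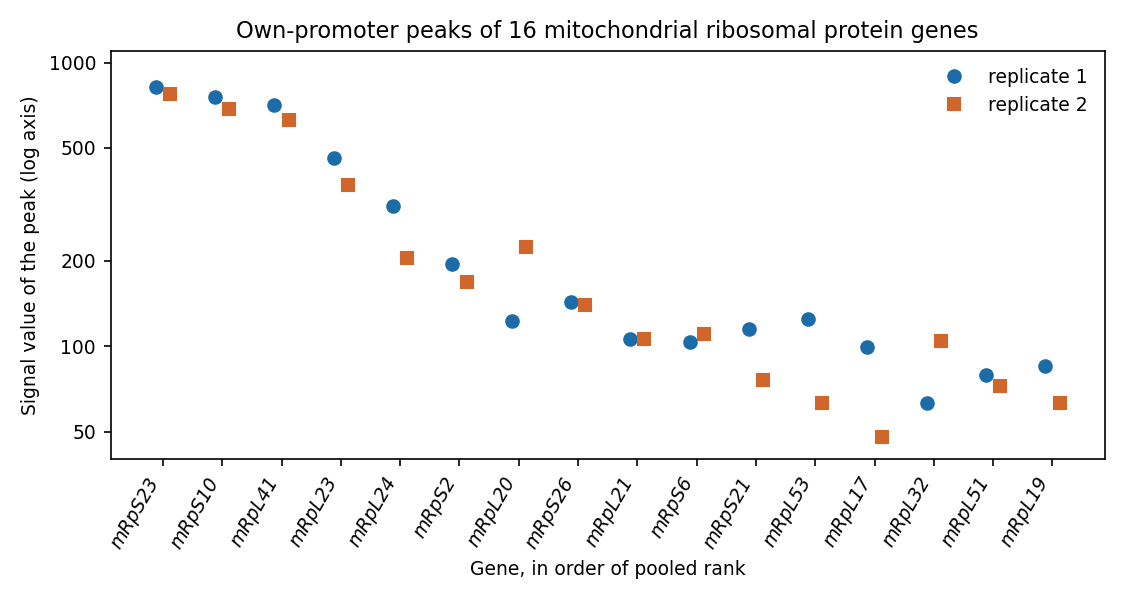
Signal value of the peak (y, log axis) at the own promoter of the 16 members, in order of pooled rank (x), in replicate 1 (circles) and replicate 2 (squares); there are no error bars because each point is 1 peak of 1 replicate. The 3 strongest lie above 600 in both replicates, and mRpL20, mRpS6 and mRpL32 are the members with a higher value in replicate 2.

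Most of these summits lay in a shared space between a pair of genes. A divergent neighbour, a protein-coding gene on the other strand with its TSS head to head within 1 kb, was present for 58 of the 73 members, in 53 of them within 500 bp, against 36.2% of all protein-coding genes. Of the 16 own-promoter members 15 had one, mRpL19 being the exception, and 12 of the 16 summits lay between the 2 TSSs. Over all genes, 1042 of the 2001 with an IDR summit at the own promoter had a divergent neighbour. The share of summits between 2 such TSSs was not counted over all genes. Among the members with a divergent neighbour, 15 of 58 (25.9%, 15.3 to 39.0%) had an IDR summit at the own promoter, against 20.6% of all genes with such a neighbour. Among the members without one, 1 of 15 (6.67%, 0.169 to 31.9%) had such a summit, against 10.8% of all other genes. Set against genes of the same arrangement, both shares lay near their backgrounds, which were inside the intervals. Territory summits were found for 32 of the 58 (55.2%, 41.5 to 68.3%), against 48.2% of all genes with a divergent neighbour, and for 5 of the 15 (33.3%, 11.8 to 61.6%), against 34.9% of all other genes. These backgrounds too lay inside the intervals.

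The position of the summit in the shared space decided which gene counted as nearest. At mRpS23 the summit lay 379 bp upstream of the member and 113 bp from CenG1A, a gene of a family of Arf GTPase-activating proteins, with the TSSs 492 bp apart. At mRpS10 it lay 127 bp upstream, with 257 bp between its TSS and that of Art3, an arginine methyltransferase, so that it was near the middle. In replicate 1 the mRpS10 summit was 135 bp and in replicate 2 133 bp from the member's TSS, which put the TSS of Art3 nearer in each replicate alone. At mRpL41 it lay 139 bp upstream, with the TSS of CG8079 762 bp away from the member's.

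A neighbour was nearer at 9 of the 16. Besides CenG1A these were betaggt-I (geranylgeranyl transferase, 66 bp from the mRpL24 summit), Mon1 (endosome maturation, 73 bp, mRpS2), Icmt (methylation of prenylated proteins, 153 bp, mRpL20) and Droj2 (a DnaJ-type chaperone, 59 bp, mRpS21). The others were AGO1 (microRNA silencing, 74 bp, mRpL53), Tudor-SN (197 bp, mRpL17), qless (the side chain of coenzyme Q, 146 bp, mRpL32) and Uba4 (whose yeast relative works in sulfur transfer to tRNA, 45 bp, mRpL51). The mRpL17 summit, 202 bp from the member and 197 bp from Tudor-SN, was again near the middle. The member was the nearest at mRpS10, mRpL41, mRpL23, mRpS26, mRpL21 (divergent from rept, a subunit of chromatin remodellers), mRpS6 (divergent from Cip4, a membrane-bending protein) and mRpL19.

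The own-promoter summits of members lay at a median of 144 bp from the TSS (quartiles 101 to 211 bp), and 0 of 16 were within 50 bp. Over the 2001 genes with an IDR summit at their promoter the median was 157 bp and 316 (15.8%) were within 50 bp, a share inside that interval. The genes for cytosolic ribosomal proteins, the nearest counterpart by function, had a median of 16.5 bp, with 61 of 68 (89.7%) within 50 bp. The summits of mitochondrial members were thus, by the median, as far from the start as those of promoters in general, and none lay within 50 bp of it, the place of most summits of cytosolic ribosomal protein genes.

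The remaining 21 called members had territory summits that lay at no promoter of the member itself. The strongest territory summit of mRpS18B (rank 141, signal 853) lay 35 bp from the TSS of CG10747, and that of mRpL33 (rank 181, 791) in an intron of norpA, the phospholipase C of phototransduction, 1375 bp from its TSS. mRpL19 also had its strongest territory summit (rank 101, 965) 4743 bp upstream, 252 bp from a TSS of CG8036. The strongest summit of mRpL28 (rank 384, 554) lay 88 bp from CG3792, and that of mRpL18 (rank 471, 509) 14 bp from Nacalpha, a subunit of the complex that binds nascent chains at the cytosolic ribosome.

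At 4 members the strongest territory summit was nearest to the TSS of a cytosolic ribosomal protein gene, a group singled out after its values were seen. How often this holds for called genes in general was not counted, so the 4 are a description only. The 4 members were mRpS22 (rank 279, 33 bp from RpL4), mRpL50 (rank 497, 9 bp from RpL18), mRpL44 (rank 633, 7 bp from RpL35A) and mRpL27 (rank 644, 1 bp from RpL27A). Their distances to the member's own TSS were 5880, 2573, 3542 and 1286 bp in the same order.

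The strongest territory summits of the other 13 of these members were also assigned to other genes, by rank mRpL36 (588, Cds), mRpL40 (800, mgr), mRpL12 (1006, CG43783 and orb2), mRpS31 (1029, intron of hzg) and mRpS7 (1044, CG5096). There followed mRpL4 (1204, cact, the IκB of the dorsal pathway), mRpL2 (1791, FoxK), mRpS30 (1792, Rhp), mRpL34 (2077, intron of Dg) and mRpS9 (2734). The last were mRpL22 (2975, if), mRpL55 (3686, CG6040) and mRpS11 (4230, Keap1). The mRpS9 summit lay in an intron of both mRpS9 and the overlapping gene wtrw, which encodes a TRP channel, 1188 bp from the TSS of wtrw and 10148 bp from that of mRpS9. At the edge of the territory, mRpS18B had its nearest IDR summit 4728 bp from the gene, just inside the limit of 5 kb, and mRpS28 and mRpL15 had theirs 5138 and 5998 bp away, just outside.

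Each replicate was then read alone, with its 4291 strongest peaks. In replicate 1, 44 members (60.3%, 48.1 to 71.5%) had a territory summit, against 40.3% of all genes. An own-promoter summit was found for 18 (24.7%, 15.3 to 36.1%), against 14.4%. Both backgrounds, over genes of all sizes and arrangements, lay below the intervals. Most members have a divergent neighbour, and no replicate background, in 1 replicate or in both, was counted over all genes with such a neighbour. A higher share in members therefore cannot be told apart from their arrangement. In replicate 2, 39 members (53.4%, 41.4 to 65.2%) had a territory summit, against 41.4%, at the lower end of the interval. An own-promoter summit was found for 12 (16.4%, 8.79 to 27.0%), against 15.5%. In replicate 2 the own-promoter share was thus at the background. A territory summit in both replicates was found for 36 members (49.3%, 37.4 to 61.3%), against 34.8% of all genes, a background below the interval. Of these 36, 32 were also called from the IDR list. An own-promoter summit in both replicates was found for 11 members (15.1%, 7.77 to 25.4%), against 11.3% of all genes, a background inside the interval, and all 11 were also called from the IDR list.

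All 16 own-promoter IDR summits had a summit within 100 bp in the full relaxed list of each replicate, and 10 had it among the 4291 strongest of both. The 2 replicate summits of a site lay a median of 26.5 bp apart, up to 141 bp at mRpS26. Of the 16, 13 had the higher signal in replicate 1, against 59.3% of the 3988 IDR peaks with a match in both. The largest gaps in rank between matched summits were at mRpL17 (2859 in replicate 1, 8977 in replicate 2), mRpL53 (1900 and 5831) and mRpL32 (6124 and 2447). At mRpL17 replicate 2 also had an own-promoter summit among its 4291 strongest, more than 100 bp from the IDR summit. It was therefore called at the own promoter in both replicates but not matched among the strongest of both. The call of the nearest TSS was the least repeatable. The own TSS was nearest in 7 members in replicate 1 (3.94 to 18.8%), against 17.7% of all genes, inside the interval. In replicate 2 it was nearest in 4 (1.51 to 13.4%), against 18.0%, above the interval. Only 3 of the 7 IDR members, mRpL41, mRpL23 and mRpS6, had it in the IDR list and both replicates.

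**Figure D3:**
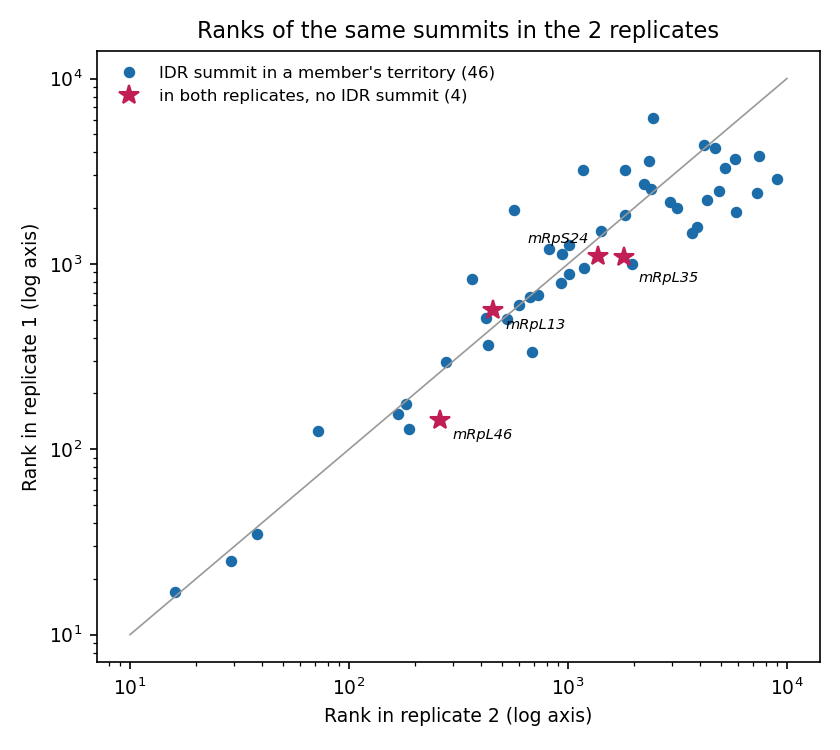
Rank of the same summit in replicate 1 (y) and replicate 2 (x), both on log axes, for the 46 IDR summits in member territories with a match in both replicates (circles) and the 4 strong replicate sites without an IDR summit in the territory (stars); the line marks equal rank. Ranks lie close to the line down to about rank 1000 and scatter below it, and mRpL46 stands among the strongest of the sites shown.

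In 4 members both replicates had a strong territory summit within 100 bp of each other and the IDR list had none in the territory. At mRpL46 it ranked 144 in replicate 1 (signal 446) and 261 in replicate 2 (318), 107 bp from the TSS of PolD2, a subunit of the DNA polymerase delta, and 1913 bp upstream of mRpL46. The nearest summit of the pooled relaxed list was 19072 bp away. At mRpS24 it ranked 1110 and 1375 in replicates 1 and 2, 81 bp from TBC1d7, and the nearest pooled summit was 9359 bp away. At mRpL35 it ranked 1091 and 1806, 24 bp from Cchl, the cytochrome c heme lyase, and the nearest pooled summit was 2000 bp away. At mRpL13 it ranked 561 and 453, 95 bp from CG10602, with a pooled summit 171 bp away at rank 5277, outside the IDR list. Over the genome 18 of 2863 replicate pairs of summits had no pooled summit within 250 bp, and 3 of the 18 were those of mRpL46, mRpS24 and mRpL35. How many of the 2863 pairs lay in member territories was not counted, so these 3 have no share to be read against. Why the pooled list has no peak there was not tested.

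Below the IDR threshold, the pooled relaxed list had a summit at the own promoter of 33 members (45.2%, 33.5 to 57.3%), against 38.2% of all genes, and in the territory of 50 (68.5%, 56.6 to 78.9%), against 72.1% of all genes. The 17 members added at the own promoter were led by mRpL18 (rank 4772, signal 134), mRpL11 (4908, 132) and mRpS31 (5175, 127). They ended with mRpS5 (25823, 39.3), mRpL49 (27195, 37.5) and mRpL50 (28884, 35.5), near the end of the list. With the background included, members thus no longer stood above all genes in the territory. No relaxed list had a summit in the territory of 15 members, a count that was not made over all genes.

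The 36 members without an IDR territory summit fall into 3 groups. The first are the 4 with a site in both replicates, named above. In 6, mRpL47, mRpS33, mRpL37, mRpL54, mRpS16 and mRpL49, 1 replicate alone had a territory summit among its 4291 strongest. The other 26 had none in either: mRpL1, mRpL3, mRpL9, mRpL10, mRpL11, mRpL14, mRpL15, mRpL16, mRpL30, mRpL38, mRpL39, mRpL42, mRpL43, mRpL45, mRpL48, mRpL52, mRpS5, mRpS14, mRpS17, mRpS18A, mRpS18C, mRpS25, mRpS28, mRpS29, mRpS34 and mRpS35. Core proteins of the ribosome with bacterial relatives, such as mRpL3 and mRpS5, are among them.

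The shares of the 2 subunits lay close together. Of the large subunit, 24 of 47 members (51.1%) had a territory summit and 10 (21.3%) an own-promoter summit. Of the small subunit, 13 of 26 had a territory summit and 6 (23.1%) an own-promoter summit. All genes stood at 39.7% and 14.3%. Members with a number shared with bacterial ribosomal proteins (up to 36 in the large and 21 in the small subunit) had a territory summit in 25 of 42 (59.5%, 43.3 to 74.4%), against 12 of 31 (38.7%, 21.8 to 57.8%) of those with higher numbers, the convention for proteins without a bacterial relative. The 39.7% of all genes lay below the first interval and inside the second. The 2 intervals overlap, and the own-promoter counts were 11 (26.2%) and 5 (16.1%) in the same order.

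By chromosome arm, the share of members with a territory summit was highest on 2L, with 9 of 12, and 3L, with 11 of 17. It was 10 of 21 on 3R, 4 of 12 on 2R and 3 of 11 on X. The X had no member with an own-promoter summit, and the arms 2L, 2R, 3L and 3R had 4, 2, 6 and 4. Over all protein-coding genes the arms differed little, from 37.9% on X to 43.0% on 3L in the territory and from 12.6% on X to 15.3% on 3L and 3R at the own promoter.

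Other gene groups of the same pathway and of the cytosolic ribosome were read in the same way. The genes for cytosolic ribosomal proteins had a territory summit in 75 of 92 (81.5%, 72.1 to 88.9%), an own-promoter summit in 68 (73.9%) and the own TSS nearest in 68. The median own-promoter rank was 1820 in the mitochondrial members, against 579.5 in the cytosolic ones. Nuclear genes for subunits of oxidative phosphorylation had a territory summit in 36 of 87 (41.4%, 30.9 to 52.4%) and an own-promoter summit in 7 (8.05%, 3.3 to 15.9%). These 87 were taken by symbol, so they include genes named as relatives of a subunit, such as COX4L and COX5BL. The shares without such genes were not counted, and the comparison with members depends on how the list was made. Mitochondrial ribosomal protein genes thus lay below the cytosolic ones in all 3 readings, with intervals that did not overlap, and above the oxidative phosphorylation genes in the territory and at the own promoter, with intervals that did. The own TSS was nearest in 8 of the 87 oxidative phosphorylation genes (9.2%, 4.05 to 17.3%), close to the 9.59% of the members.

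**Figure D4:**
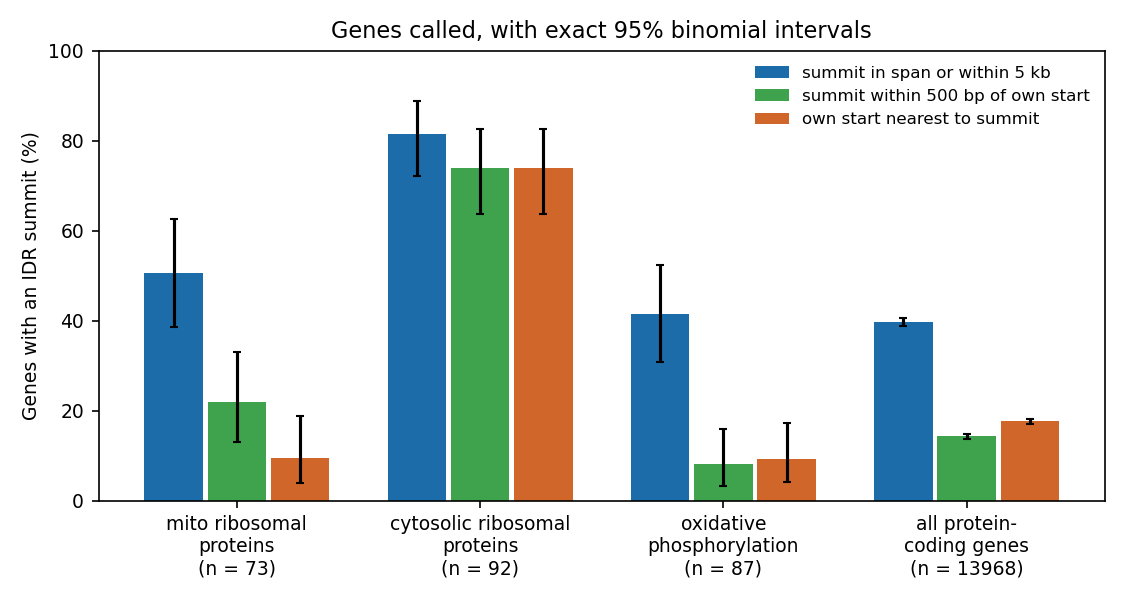
Share of genes with an IDR summit (y, %) in the territory, at the own promoter and with the own start site nearest, for the mitochondrial ribosomal protein genes, the cytosolic ribosomal protein genes, the oxidative phosphorylation genes and all protein-coding genes; bars are shares and error bars are exact 95% binomial intervals, which cover counting only. The 3 bars stand at 50.7%, 21.9% and 9.59% in the mitochondrial ribosomal protein genes, and lie at 81.5%, 73.9% and 73.9% in the cytosolic ones.

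Within the mitochondrial gene expression system, tko and bonsai, mitoribosomal proteins with other symbols, had no IDR summit in the territory. Of 9 translation factors found, 3 had a territory summit, waw (rank 129), mRRF1 (2001) and mEFG1 (3060), and 0 an own-promoter summit (0 to 33.6%). A list of 16 genes held those with symbols of mitochondrial aminoacyl-tRNA synthetases, and Slimp. Of these 16, 7 had a territory summit (43.8%, 19.8 to 70.1%) and 0 an own-promoter summit (0 to 20.6%). Slimp had the strongest territory summit of the 7 (rank 160). Of 13 genes of mitochondrial DNA and RNA found, 10 had a territory summit (76.9%, with a lower bound of 46.2%) and 4 an own-promoter summit (30.8%, 9.09 to 61.4%): SLIRP2 (rank 94, 116 bp from its TSS) and SLIRP1 (708, 189 bp), which are relatives of a mammalian stabiliser of mitochondrial mRNA, the termination factor relative mTerf5 (2867, 38 bp) and the rRNA methyltransferase relative mtTFB1 (4119, 447 bp). The territory of PolG2, the accessory subunit of the mitochondrial DNA polymerase, took in the same summit of rank 17 as that of mRpS23. The all-gene share at the own promoter, 14.3%, lay inside the interval of each of these small lists. The all-gene share in the territory, 39.7%, lay below the interval of the DNA and RNA genes and inside those of the others. In each replicate alone it lay inside the interval of the DNA and RNA genes too. These were 31.6 to 86.1%, against 40.3%, in replicate 1 and 38.6 to 90.9%, against 41.4%, in replicate 2.

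The sequence under the summits was searched for fixed words on both strands. The Odd word ACAGTAGC, a consensus recalled as background, was in 0 of 73 member promoters (250 bp before to 50 bp after the TSS), against 0.523% of all protein-coding promoters, and in 0 of 16 windows reaching 100 bp to each side of the own-promoter summits, against 0.652% of the 1841 IDR summits at promoters. With so rare a word 0 of 16 says only that these letters are not in these windows. The DRE was in 15 of 73 member promoters (20.5%), against 9.36% of all and 30.4% of the promoters of cytosolic ribosomal protein genes. It was in 5 of the 16 promoters with an own-promoter summit and in 10 of the other 57, and in 0 of the 16 summit windows, against 4.18% of the windows at promoter IDR summits. The site printed for mRpL19 holds its DRE more than 100 bp from the summit.

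The other words were counted in the same promoters. The BEAF core CGATA, which overlaps the DRE, was in 43 of 73 (58.9%), against 47.3% of all. Motif 1 of core promoters (its core GGTCACAC) was in 8 (11.0%), against 7.69%, and the E-box CACGTG in 5 (6.85%), against 4.2%. The ewg site GCGCATGC was in 1 (1.37%), against 1.05%, and the Ets word CCGGAAG in 0, against 1.09%. The Zelda word CAGGTAG was in 0, against 1.64%, and GAGAG, the word of GAGA factor, in 12 (16.4%), against 29.7%. Promoters of cytosolic ribosomal protein genes held CGATA in 72.8%, the motif 1 core in 16.3% and GAGAG in 16.3%. They held the E-box in 7.61%, the Ets word in 6.52%, and the ewg and Zelda words in 0. The high shares of the DRE and CGATA and the low share of GAGAG were thus not particular to members. At the 16 summits GAGAG was in 3 (18.8%), against 29.7% of the promoter IDR summits, and CGATA in 3 (18.8%), against 29.1%. The motif 1 core was in 2 (12.5%), against 2.88%, and the E-box and the ewg site in 1 each (6.25%), against 3.04% and 0.598%. The Ets and Zelda words were in 0, against 1.41% and 0.978%. Each of these counts is of 3 windows or fewer. These 16 windows had a median GC content of 31.6% (24.4 to 54.2%), against 37.3% at all promoter IDR summits, and the part of base composition in the word counts was not tested.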

How the data were processed

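Sites were read from 4 deposited dm6 peak lists: 1 relaxed list for each of 2 biological replicates, 1 for their pool, and the IDR list. Per the deposited text records, relaxed lists were called from alignments with a control, and the IDR procedure took these lists as its input. Not given in the sources used here were peak caller, aligner, read filters and IDR threshold. A deposited signal value is a score that the authors' caller gave each peak. The deposited offset, another number of the record, placed the summit within the peak. Depth is unknown. The lists made on dm3 were not used.

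Genes and TSSs came from Ensembl release 115 and sequence from NCBI Release 6, and the peaks ended within its chromosome arms. Coordinates are 1-based. Calls were made with Python 3.11.15, pandas 2.3.3 and NumPy 2.4.6, and exact 95% Clopper-Pearson intervals with SciPy 1.17.1. Replicate calls used the 4291 strongest peaks, and matched summits lay within 100 bp. The calls were tested on simulated data, with planted sites recovered. No test across samples exists with 1 group, and gene lists were described by counts beside all protein-coding genes.

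The members and lists were chosen with earlier results of these data known. The named genes are all members with an IDR own-promoter summit, those with the strongest territory summits and their nearest neighbours, and the 3 highest and 3 lowest relaxed own-promoter ranks outside the IDR list. Every other member is named once by its call. The symbols mEFG2 and tam of the lists were not matched. Alternatives were other distances, TSS definitions, numbers of peaks, 1 summit per merged region, and each replicate alone.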

Additional observations from a re-analysis of the deposited data

How the results depend on the processing

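Of 29 alternatives, 23 left the count of members within 1.5 times the reported one. With territories of 1 kb in place of 5 kb, 21 members (28.8%) had an IDR summit, against 22.8% of all genes. With the gene span alone the count was 2 (2.74%), against 11.9%. The latter background is of genes of all sizes, and members are short. With promoters of 100 bp the own-promoter count was 4 (5.48%), against 4.95% of all genes, and with the 2145 strongest IDR peaks it was 9 (12.3%), against 8.52%. In the relaxed pooled list, promoters of 100 bp gave 15 members (20.5%), against 18.2%. With 1 replicate left out, the territory count ranged from 39 to 44, the own-promoter count from 12 to 18, the count with the own TSS nearest from 4 to 7 and the relaxed own-promoter count from 34 to 37. The lowest of the third, 4 members (5.48%, against 18.0% of all genes), came without replicate 1, that is from replicate 2 alone. No paired analysis was possible because the samples are 1 group of 2 replicates. Unknown read depth limits each call below the IDR threshold, and a summit shift of a few bp moves the nearest TSS where 2 start sites are equally close, as at mRpS10.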
